A study of Homo sapiens with 6 samples.

Results

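The endoplasmic reticulum (ER) folding and disposal machinery was measured as 34 named genes: 12 chaperones and co-chaperones, 11 isomerases with the oxidase that serves them, and 11 components of ER-associated degradation (ERAD). Members were taken by gene symbol from probe sets annotated to a single gene, older aliases included, and the probe set with the highest mean signal stood for the gene. On this rule 29 of the 34 were measured, among 11963 genes in all. The 29 were 11 chaperones, 9 isomerases and 9 ERAD components, and all 29 lay above the filter on dim genes, so 29 of the 7178 genes tested were members. DNAJB11, SYVN1 and ERLEC1 had no probe set under the annotation used here, and PDIA5 and TXNDC5 shared theirs with a second symbol. These 5 were not analysed here.

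The cells were U87 glioblastoma cells, an established human line, carrying a dominant negative transgene of IRE1alpha (labelled IRE1dn here, 3 arrays). They were set against U87 cells carrying the empty plasmid (ctrl, 3 arrays). Both were kept for 16 h in DMEM with 10% serum and glutamine before total RNA was taken. No drug or stressor is named, so the comparison is of cultures without a stated stressor. The labels give a single clone, IRE1.NCK DN, for the transgene and speak of clones in the plural for the empty plasmid. They assign no clone to an array, name no promoter for the transgene and do not say that replicates were separate cultures. A difference between the groups therefore cannot be told apart from a difference between clones, and p-values measure the spread between these arrays, which may be technical.

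As background, proteins that enter the ER are folded by HSPA5 (BiP), the ER member of the heat shock 70 family, with its J-domain helpers, and by HSP90B1, while the lectins CALR and CANX hold glycoproteins until their sugars are trimmed. Disulfide isomerases make and rearrange disulfide bonds, and what fails to fold is drawn back through the membrane by the SEL1L and SYVN1 complex, ubiquitinated and pulled out by VCP for the proteasome. When unfolded protein builds up, the sensors IRE1alpha, ATF6 and PERK raise many of these transcripts. IRE1alpha, encoded by ERN1, acts by splicing XBP1 messenger RNA into a form that encodes an active transcription factor. Glioblastoma cells secrete matrix proteins and growth factors, which pass through this machinery.

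ATF6 and XBP1 act on short DNA elements, which were searched for in RefSeq promoter windows of build GRCh38.p14, from 250 bases before to 50 bases after each annotated start. These sequences are shown because members with a match to a stress element and members without one could then be set side by side. The ER stress element (ERSE) was searched as CCAAT, then 9 bases, then CCACG, its second form (ERSE-II) as ATTGG, then 1 base, then CCACG, and the unfolded protein response element (UPRE) as TGACGTGG, each on both strands. ERSE and ERSE-II share the letters CCACG, and in HYOU1 a UPRE overlapped an ERSE-II. At least 1 window was matched by symbol for 31 of the 34 members, 42 windows in all. DERL1, PDIA3 and UFD1 had none. Of the 31, 12 (38.7%) held at least 1 element, against 104 of 6029 tested genes with a window (1.72%). ERSE was in 6 members (19.4%, against 0.199% of those tested genes), ERSE-II in 3 (9.68%, against 0.199%) and UPRE in 4 (12.9%, against 1.34%). Among chaperones 7 of 12 held an element, among isomerases 3 of 10, and among ERAD components 2 of 9. The 31 include members that were not tested, TXNDC5 with its UPRE among them, and the 6029 include the tested members. Elements and members were both chosen for their part in the ER stress response, so the higher share is not independent evidence. A match is a description of letters in a window and not a bound site. Only exact letters were counted, so a site with 1 letter changed was not. The HERPUD1 window printed below holds such a site with the ERSE spacing, left in lower case. Members without a match may also hold one. The 7 distinct ERSE matches, read 5′ to 3′ on the strand that carries CCAAT, with the searched letters in capitals and the spacer in lower case, were:
HSPA5: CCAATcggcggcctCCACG
HSP90B1, farther from the start: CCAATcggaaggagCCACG
HSP90B1, nearer the start: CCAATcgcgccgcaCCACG
CALR: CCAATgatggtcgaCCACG
CANX: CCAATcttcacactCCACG
CRELD2: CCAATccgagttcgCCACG
PDIA6: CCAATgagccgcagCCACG

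The CANX site fell in 3 of its 4 windows, those that overlap each other, and was counted once. ERSE-II was found in HERPUD1, SDF2L1 and, as 2 copies, HYOU1. UPRE was found in DNAJC10, VCP, HYOU1 and TXNDC5. Whole windows are printed for 4 members, of which CRELD2 rose, DNAJC10 fell, and HSPA5 and HERPUD1 did not pass the threshold below. They are those of HSPA5 (chr9:125241294-125241593, minus strand), CRELD2 (chr22:49918384-49918683, plus strand), DNAJC10 (chr2:182716007-182716306, plus strand) and HERPUD1 (chr16:56931892-56932191, plus strand). Each is read in the direction of transcription, with the exact match in capitals:
HSPA5: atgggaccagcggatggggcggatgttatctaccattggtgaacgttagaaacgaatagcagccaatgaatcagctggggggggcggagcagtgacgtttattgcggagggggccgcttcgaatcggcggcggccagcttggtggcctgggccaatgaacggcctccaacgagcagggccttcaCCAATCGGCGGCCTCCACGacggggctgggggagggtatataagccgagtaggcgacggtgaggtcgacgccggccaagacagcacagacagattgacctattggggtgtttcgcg
CRELD2: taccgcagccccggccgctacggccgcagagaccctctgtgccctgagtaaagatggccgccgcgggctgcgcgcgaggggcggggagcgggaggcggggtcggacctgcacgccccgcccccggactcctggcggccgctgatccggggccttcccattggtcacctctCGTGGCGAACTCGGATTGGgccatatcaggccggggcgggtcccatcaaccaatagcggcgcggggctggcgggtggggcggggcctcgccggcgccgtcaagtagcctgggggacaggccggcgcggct
DNAJC10: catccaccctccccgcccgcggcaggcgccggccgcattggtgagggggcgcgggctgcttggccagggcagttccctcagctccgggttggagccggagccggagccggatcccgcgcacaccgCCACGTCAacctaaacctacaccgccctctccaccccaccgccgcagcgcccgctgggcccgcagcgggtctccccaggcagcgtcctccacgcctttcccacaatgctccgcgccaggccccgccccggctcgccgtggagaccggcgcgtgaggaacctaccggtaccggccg
HERPUD1: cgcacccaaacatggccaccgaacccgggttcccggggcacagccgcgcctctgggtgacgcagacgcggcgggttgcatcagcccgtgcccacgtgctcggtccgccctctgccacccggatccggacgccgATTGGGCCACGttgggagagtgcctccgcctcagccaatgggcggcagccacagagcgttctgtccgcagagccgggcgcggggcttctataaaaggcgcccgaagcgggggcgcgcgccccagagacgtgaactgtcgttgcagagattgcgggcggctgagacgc

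**Figure D1:**
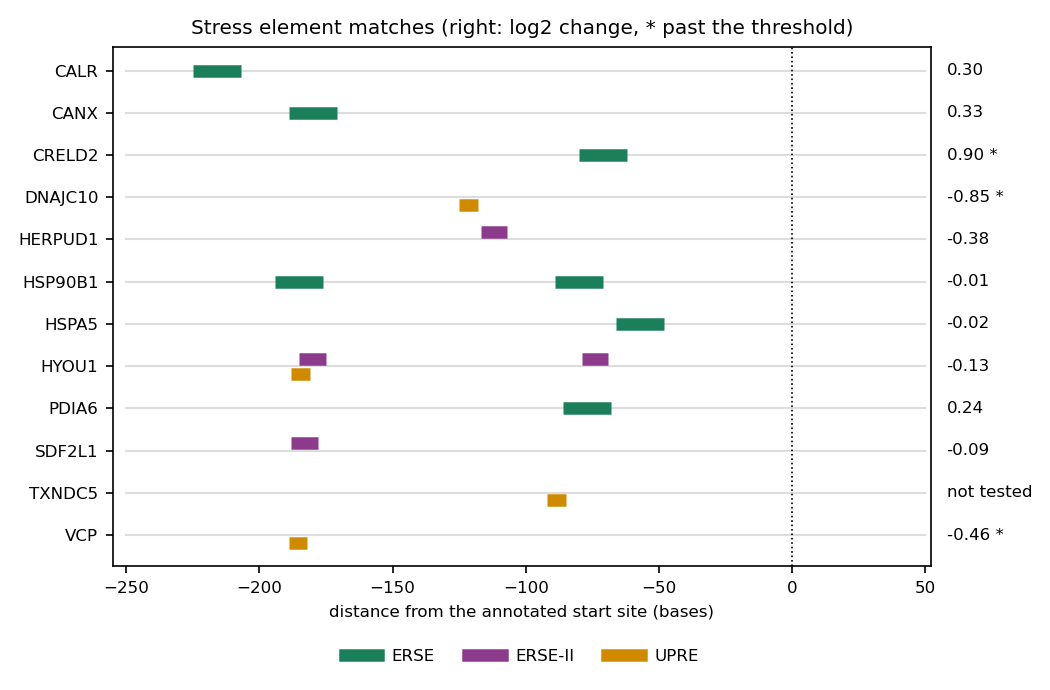
Matches to ERSE, ERSE-II and UPRE in the promoter windows of the 12 members that held any, by distance in bases from the annotated start, with each member's log2 change, IRE1dn minus ctrl, at the right and an asterisk where it passed the threshold. For CANX the window placing the match farthest from the start is drawn. CRELD2 rose, DNAJC10 and VCP fell, and the other tested carriers did not pass.

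Expression was read on 6 Affymetrix arrays as linear signal units per probe set, already scaled by the authors, so that every array had a mean of 100.03 units after trimming 2% at each end. A change shared by all transcripts would not be seen. Array medians lay between 18.4 and 21.03 units. Changes are differences in log2(signal + 1.75), IRE1dn minus ctrl, with their standard errors (SE), and the pseudocount makes changes of dim genes smaller than their signal ratios. Tests are limma's, with Benjamini-Hochberg adjustment over all 7178 genes and a threshold of 0.05. In that fit 34.4% of all genes passed, 17.9% higher and 16.5% lower in IRE1dn cells. Levels of different genes are not compared, since probe sets bind with different strength. Of the line's markers, VIM lay between 2586 and 5122 units and CD44 between 1450.4 and 1845 on the 6 arrays, NES between 9.52 and 44.9, while the glial markers GFAP, S100B and SOX2 were below the filter level of 12.97 units on every array. OLIG2 was at most 4.46 units in IRE1dn cells and 9.20 to 24.9 in ctrl cells. The 8 measured endothelial, leukocyte and epithelial markers were at most 17.3 units. The ratio of 3′ to 5′ signal of ACTB, a measure of RNA integrity, was 1.64 on IRE1dn array 3, against 1.09 and 1.21 on the other IRE1dn arrays and 1.16 to 1.21 on the ctrl arrays. That of GAPDH was 0.869 to 0.940 on the 6 arrays.

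The 3 upstream factors differed in outcome. XBP1 had 113, 125 and 130.4 units on the IRE1dn arrays, against 265, 229 and 203 units on the ctrl arrays, and fell by 0.90 on the log2 scale (SE 0.18, limma adjusted p = 0.0045). ATF6 had 33.7, 75.2 and 69.6 units on the IRE1dn arrays, against 55.3, 58.1 and 76.0 units on the ctrl arrays, and the groups overlapped (-0.15, SE 0.31, limma adjusted p = 0.74). ERN1 was below or near the filter level on every array, with 9.89 to 12.9 units in IRE1dn cells and 10.99 to 14.0 in ctrl cells. Its probe set need not lie in the transgene, and the arrays do not read XBP1 splicing.

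Against this fall of XBP1, the folding and ERAD genes did not move as a block. Of 29 members, 4 rose (P4HB, CRELD2, OS9 and PDIA3), 5 fell (DNAJB9, FKBP2, DERL2, DNAJC10 and VCP) and 20 did not pass. The 9 calls are 31% of the members, near the 34.4% of all genes. The median log2 change was -0.02 over the members and 0.01 over all genes tested, and the median size regardless of sign was 0.30 against 0.46. Each class split. Chaperones had 1 rise and 1 fall among 11, isomerases 2 and 2 among 9, and ERAD components 1 and 2 among 9, with class medians of -0.02, 0.03 and -0.02. No difference between the classes was tested.

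**Figure D2:**
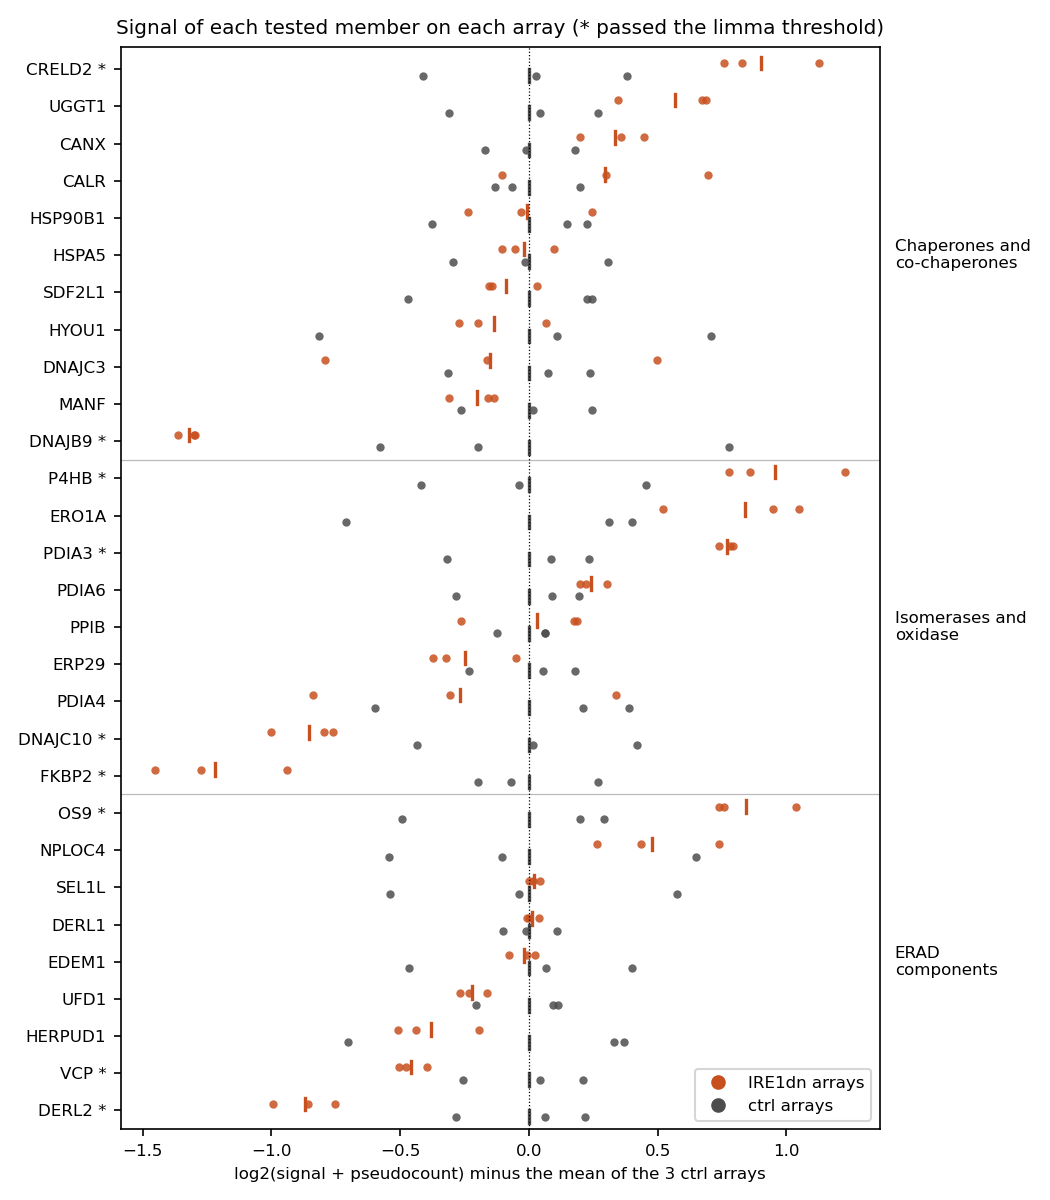
Each point is 1 array: log2(signal + 1.75) of a member minus the mean of that member's 3 ctrl arrays, with IRE1dn points above ctrl points and vertical bars at group means. Members are ordered by their change within each class, and an asterisk marks the 9 past the limma threshold. DNAJB9, FKBP2, DERL2 and DNAJC10 lie left of every ctrl point, and P4HB, CRELD2, PDIA3 and OS9 right of them.

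Among the chaperones, the general folding machines HSPA5 and HSP90B1 had overlapping signals in the groups. HSPA5 had 2094, 2171 and 2413 units on the IRE1dn arrays, against 1839, 2791 and 2228 units on the ctrl arrays. All 3 IRE1dn values lay inside the ctrl range, and the log2 change was -0.02 (SE 0.16, limma adjusted p = 0.94) with a 95% confidence interval of -0.39 to 0.35. HSP90B1, the ER heat shock 90 protein, whose window held 2 ERSE matches, had 1029, 735 and 849 units in IRE1dn cells, against 668, 1015 and 960.4 units in ctrl cells (-0.01, interval -0.45 to 0.44). Its other, dimmer probe set gave 0.49 (limma adjusted p = 0.25 in a fit over probe sets). Both HSP90B1 probe sets are named as ones that may cross-hybridise. HYOU1, which exchanges nucleotide on HSPA5, had 131, 109 and 103 units on the IRE1dn arrays, inside the 70.1, 205 and 135 units of the ctrl arrays (-0.13, SE 0.33). SDF2L1, a partner of ER J-domain proteins, had 126, 112 and 111 units in IRE1dn cells, against 88.6, 147 and 145 units in ctrl cells (-0.09, SE 0.23). MANF, a secreted ER protein that binds HSPA5, averaged 563 ± 36.4 units in IRE1dn cells and 653 ± 114 units in ctrl cells (SD, n = 3 each), with a change of -0.20 (SE 0.17). DNAJC3 (p58IPK), a J-domain protein of the ER, averaged 52.1 ± 23.6 units in IRE1dn cells and 55.0 ± 10.7 units in ctrl cells (SD, n = 3 each). None of these 6 passed, and the limma adjusted p-values ran from 0.38 for MANF to 0.98 for HSP90B1. Their intervals were as wide as -0.88 to 0.61 on the log2 scale, for HYOU1.

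DNAJB9 (ERdj4), the J-domain protein that keeps HSPA5 on IRE1alpha, was the chaperone that fell. It had 136, 130.1 and 136 units on the IRE1dn arrays, against 294, 579 and 225 units on the ctrl arrays. The groups did not overlap, and the IRE1dn arrays lay close together (SD 3.40 units) where the ctrl arrays did not (SD 188 units). The log2 change was -1.32 (SE 0.30, limma adjusted p = 0.0090), and the ctrl mean was 2.73 times the IRE1dn mean. Its other probe set went the same way, with 19.9, 18.8 and 21.2 units on the IRE1dn arrays and 50.9, 148 and 37.6 units on the ctrl arrays (-1.64, limma adjusted p = 0.016 in a fit over probe sets). The call held with every array left out in turn, at changes between -1.61 and -0.93, the smallest without ctrl array 2. No element was matched in the DNAJB9 window.

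CRELD2, a secreted ER protein known to rise in ER stress, was the chaperone-class member that rose. It had 661, 629.8 and 814 units on the IRE1dn arrays, against 279.7, 379 and 485 units on the ctrl arrays, so every IRE1dn array lay above every ctrl array. The log2 change was 0.90 (SE 0.21, limma adjusted p = 0.011), and without IRE1dn array 3, the array with the high ACTB ratio, it was 0.79 and no longer passed (adjusted p = 0.054). Its ERSE match, printed above, thus stood beside a rise, while the same element in HSPA5 and HSP90B1 stood beside values that overlapped between groups.

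The lectin cycle members had higher means in IRE1dn cells, and none of the 3 passed. CANX had 1156, 1289 and 1372 units on the IRE1dn arrays, all above the 894, 1141 and 999 units of the ctrl arrays, by 0.33 (SE 0.15, limma adjusted p = 0.11). UGGT1, which adds glucose back to unfolded glycoproteins, had 103, 81.0 and 102 units on the IRE1dn arrays, all above the 50.8, 76.8 and 65.3 units of the ctrl arrays, by 0.57 (SE 0.22, limma adjusted p = 0.068). Without ctrl array 2 the UGGT1 change was 0.70 and passed (adjusted p = 0.044). CALR had 239, 179.9 and 314 units on the IRE1dn arrays, against 177, 185 and 222 units on the ctrl arrays (0.30, SE 0.22, limma adjusted p = 0.33). The probe sets disagreed for both lectins: the other 2 of CANX gave differences of -0.08 and 0.01, and those of CALR -0.15 and 0.57. The CALR probe set used, and the one at -0.15, are named as ones that may cross-hybridise.

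Among the disulfide isomerases, PDIA3 and P4HB rose and DNAJC10 fell. PDIA3 (ERp57), the isomerase that works with CALR and CANX, had 1611, 1561 and 1623 units on the IRE1dn arrays, against 750.1, 1099 and 994 units on the ctrl arrays. The log2 change was 0.77 (SE 0.16, limma adjusted p = 0.0065), the groups were well apart, and the call held with every array left out in turn (0.61 to 0.89 over those fits). P4HB (PDI), the most general isomerase and a subunit of collagen prolyl hydroxylase, had 2108, 2226 and 2879.5 units on the IRE1dn arrays, against 919, 1196 and 1686 units on the ctrl arrays. The log2 change was 0.95 (SE 0.22, limma adjusted p = 0.0094). Its other probe set did not share it, with 1245, 729 and 717 units in IRE1dn cells and 577, 737 and 1041 units in ctrl cells (0.18, limma adjusted p = 0.63 in the fit over probe sets). With the mean of both the P4HB change was 0.57 and did not pass (adjusted p = 0.065).

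ERO1A, the oxidase that recharges P4HB and is also known as a hypoxia target, had 125, 117 and 86.6 units on the IRE1dn arrays, against 74.5, 79.4 and 35.8 units on the ctrl arrays. The groups did not overlap, but the change of 0.84 (SE 0.30) just missed the threshold (limma adjusted p = 0.057). It passed without ctrl array 2 (1.04, adjusted p = 0.039), with array weights (0.83, adjusted p = 0.028) and with the replicate number as a block (0.84, adjusted p = 0.024), and it was 0.48 without ctrl array 3 (adjusted p = 0.11). PDIA6 had 890.1, 876 and 941 units on the IRE1dn arrays, all above the 627, 813 and 873 units of the ctrl arrays, although 876 and 873 nearly touched (0.24, SE 0.16, limma adjusted p = 0.27). All 4 of its probe sets gave positive differences, from 0.24 to 0.59, and the largest passed in the fit over probe sets (adjusted p = 0.044). The probe set with the largest difference is named as one that may cross-hybridise.

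DNAJC10 (ERdj5), a J-domain reductase that opens disulfides of ERAD clients, went the other way. It had 133, 129.6 and 112 units on the IRE1dn arrays, all below the 167, 303 and 229 units of the ctrl arrays. The log2 change was -0.85 (SE 0.23, limma adjusted p = 0.018), and its other probe set fell by 0.66 (adjusted p = 0.038 in the fit over probe sets). The call ended without IRE1dn array 2 (-0.88, adjusted p = 0.055) or IRE1dn array 3 (-0.78, adjusted p = 0.080). Its window carried a UPRE, as printed above. PDIA4 (ERp72) had 419, 268 and 185 units on the IRE1dn arrays, spread as widely as the 218, 383 and 434 units of the ctrl arrays (-0.27, SE 0.33), and its other probe set had the opposite sign (0.56), neither passing. ERP29, a PDI relative without the active cysteines, averaged 391 ± 48.5 units in IRE1dn cells and 466 ± 66.5 units in ctrl cells (SD, n = 3 each; -0.25, limma adjusted p = 0.29).

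Of the 2 prolyl isomerases, FKBP2 fell and PPIB overlapped. FKBP2, an FK506-binding protein of the ER, had 95.3, 66.3 and 75.2 units on the IRE1dn arrays, against 175, 160.3 and 222 units on the ctrl arrays. Every IRE1dn array lay well below every ctrl array, the log2 change was -1.22 (SE 0.21, limma adjusted p = 0.0026) and the ctrl mean was 2.36 times the IRE1dn mean. This was the lowest adjusted p among the 29, and the call held in all 17 alternative settings. PPIB (cyclophilin B), which also serves collagen folding, had 1742, 1757 and 1286 units on the IRE1dn arrays, around the 1415, 1611 and 1609 units of the ctrl arrays (0.03, interval -0.32 to 0.39). The difference between FKBP2 and PPIB was not tested.

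**Figure D3:**
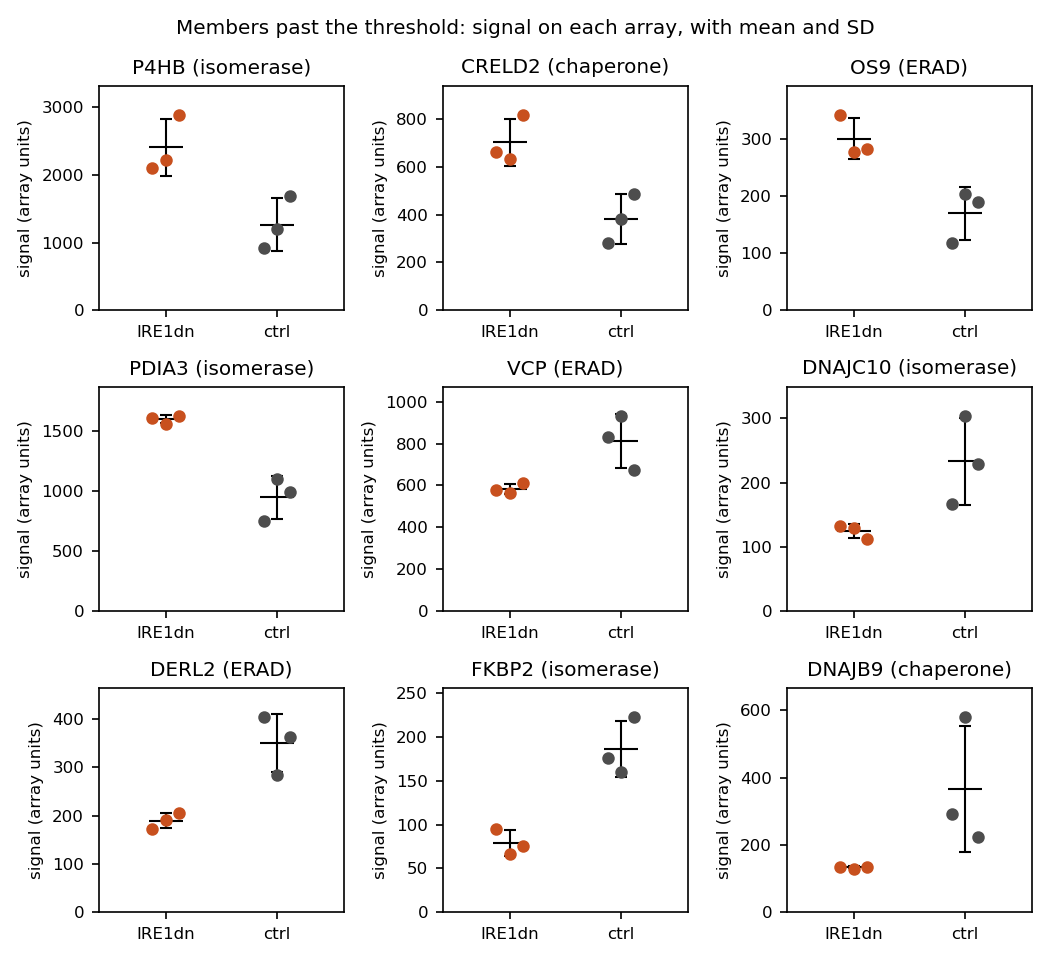
Signal in array units, on axes from 0, of the 9 members past the threshold, with IRE1dn arrays at the left and ctrl arrays at the right of each panel, and bars for the mean and SD (n = 3 each). The 2 groups do not overlap in any of the 9 panels, and for DNAJB9 the ctrl SD of 188 units stands beside 3.40 units in IRE1dn cells.

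Among the ERAD components, DERL2 and VCP fell and OS9 rose. DERL2, a derlin of the retrotranslocation channel, had 173, 190.0 and 204 units on the IRE1dn arrays, all below the 403, 284 and 361 units of the ctrl arrays. The log2 change was -0.87 (SE 0.18, limma adjusted p = 0.0062) and the call held with every array left out in turn. Its relative DERL1 had 473, 471 and 486 units on the IRE1dn arrays, inside the 441, 469.6 and 510.5 units of the ctrl arrays (0.01, interval -0.31 to 0.33). The other probe set of DERL1 gave -0.30 (limma adjusted p = 0.41 in the fit over probe sets). The difference between the derlins was not tested.

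OS9, a lectin that hands misfolded glycoproteins to SEL1L, had 341, 277 and 281 units on the IRE1dn arrays, against 117, 203 and 190.2 units on the ctrl arrays. It rose by 0.84 (SE 0.23, limma adjusted p = 0.019), but its other probe set gave 0.15 (adjusted p = 0.75 in the fit over probe sets), and the mean of both gave 0.50 (adjusted p = 0.17). The probe set used is named as one that may cross-hybridise, and the call also ended without IRE1dn array 1 (adjusted p = 0.072), 2 (0.051) or 3 (0.058). On IRE1dn array 3, where the ACTB ratio was high, 11 of the 19 member probe sets not used were at their lowest among the IRE1dn arrays, beside 6 of the 29 used. Those of OS9 and P4HB were among the 11, with 136 and 717 units. Some genes gave more than 1 of the 19. Over all genes tested, IRE1dn array 3 was the lowest IRE1dn array for 35.7%. Ctrl array 1, whose ACTB ratio was 1.21, was the lowest ctrl array for 10 of the same 19 and for 19 of the 29 used. The part of RNA integrity in the splits between probe sets was not tested.

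The segregase VCP had 577, 566 and 611 units on the IRE1dn arrays, below the 829, 929.8 and 674 units of the ctrl arrays, and fell by 0.46 (SE 0.16). With a limma adjusted p of 0.0498 it stood at the threshold, and 9 of 17 alternative settings put it at 0.058 to 0.16. These were no filter, quantile normalization, no trend, the replicate block, and the omission of any array except ctrl array 3. In the limma fit over probe sets the probe set used no longer passed (adjusted p = 0.057), and its other probe set fell by 0.70 (adjusted p = 0.025). Its cofactors did not pass. UFD1 had 702, 686 and 738 units in IRE1dn cells, against 882, 715 and 893 units in ctrl cells (-0.22, SE 0.15, limma adjusted p = 0.27), and NPLOC4 had 156, 176 and 218 units in IRE1dn cells, against 88.6, 121 and 204 units in ctrl cells (0.48, SE 0.29, limma adjusted p = 0.22). The interval of UFD1, -0.55 to 0.11, holds the value of VCP, and no difference between VCP and its cofactors was tested. Without ctrl array 3 the NPLOC4 change was 0.80 and passed (adjusted p = 0.018).

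HERPUD1, a stress-induced scaffold of the ERAD complex whose window held an ERSE-II, had 565, 538 and 669 units on the IRE1dn arrays, against 470.2, 965 and 991 units on the ctrl arrays. Ctrl array 1 lay below all IRE1dn arrays and the other ctrl arrays above them, so the change of -0.38 (SE 0.27) did not pass (limma adjusted p = 0.30). Without ctrl array 1 it was -0.73 and passed (adjusted p = 0.0098). SEL1L, the adaptor of the ubiquitin ligase, had 316, 307 and 310.1 units on the IRE1dn arrays, against 299, 459 and 211 units on the ctrl arrays (0.02, SE 0.25). EDEM1, a mannosidase-like protein that marks glycoproteins for disposal, had 88.5, 84.1 and 90.4 units on the IRE1dn arrays, inside the 63.9, 118 and 93.0 units of the ctrl arrays (-0.02, interval -0.55 to 0.51).

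**Figure D4:**
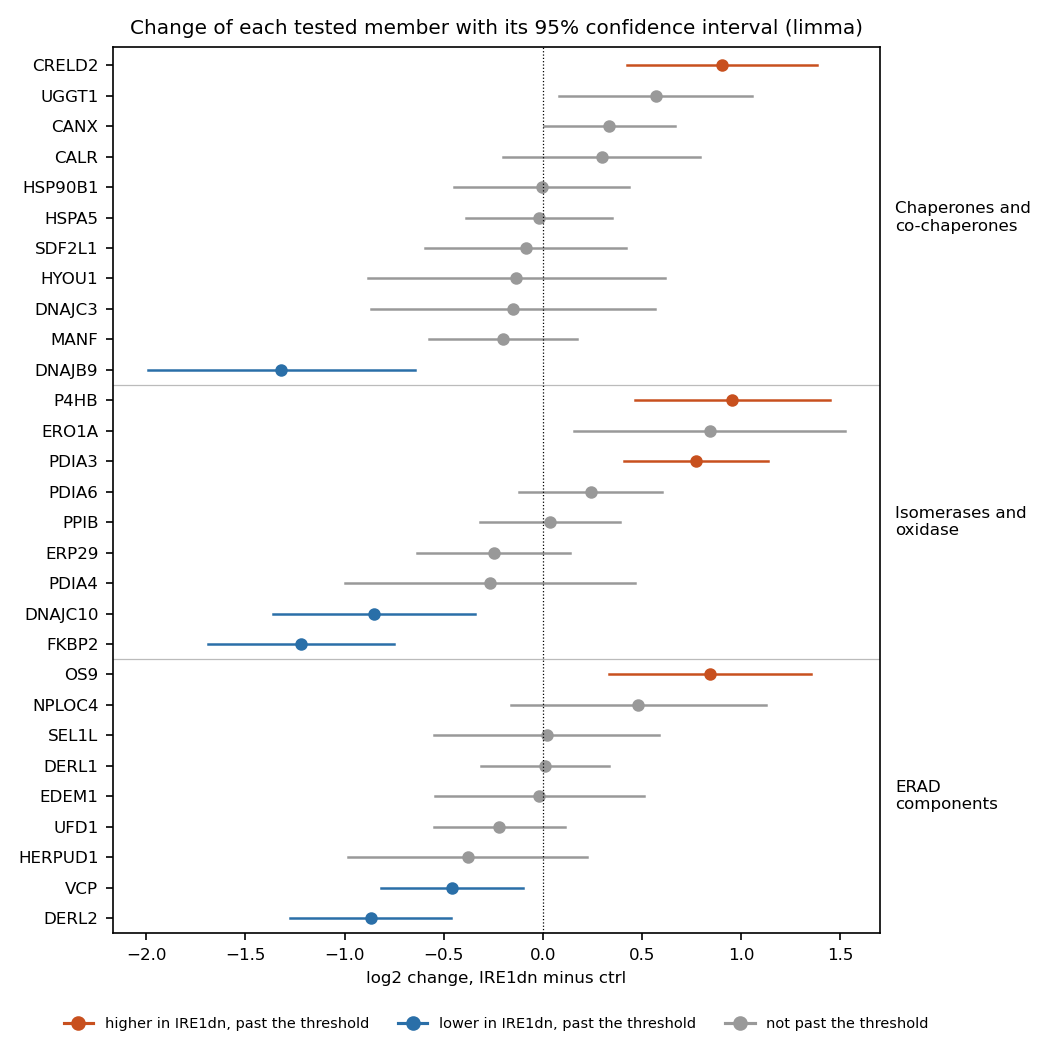
Log2 change of each tested member, IRE1dn minus ctrl, with its 95% confidence interval from limma, by class. The 4 rises lie between 0.77 and 0.95 and the 5 falls between -1.32 and -0.46, and each class holds changes of both signs.

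Groups that do not overlap were no rarity on these arrays. Of the 29 members 13 were apart, 8 higher and 5 lower on every IRE1dn array, beside 50.2% of all genes tested (26% higher and 24.2% lower). By class these were 4 of 11 chaperones, 6 of 9 isomerases and 3 of 9 ERAD components. Of the 13, the 4 that did not pass the threshold were CANX, UGGT1, PDIA6 and ERO1A, all higher. Calls were then counted by promoter element. Of 11 tested members with an exact match 1 rose, 2 fell and 8 did not pass, with a median log2 change of -0.02. Of 15 with a window and no exact match 2 rose, 3 fell and 10 did not pass, with a median of -0.02. The difference between these sets was not tested.

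Members with several probe sets showed how far a call rests on the choice of probe set. There were 13 such members, and the 29 members had 48 probe sets in all. For DNAJB9, DNAJC10 and VCP every probe set was lower in IRE1dn cells, and for PDIA6 and PPIB every one was higher in value. For P4HB and OS9 the probe set with the highest mean passed and the other lay near 0. In the fit over 11438 probe sets, 30.6% of all probe sets passed, 16.5% higher and 14.1% lower in IRE1dn cells.

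**Figure D5:**
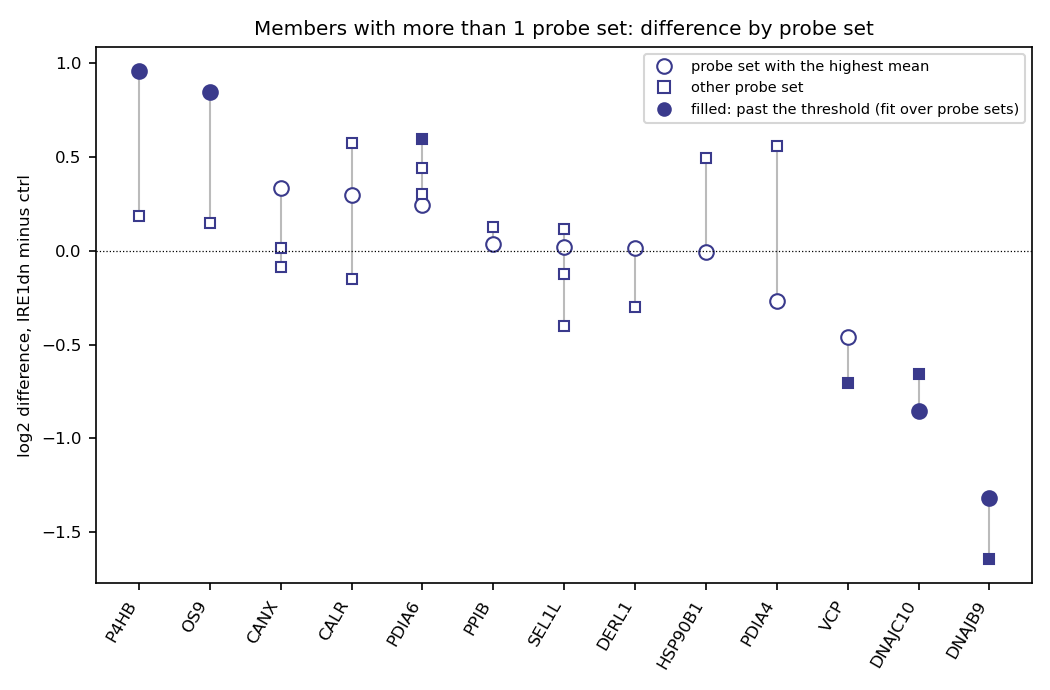
Difference in log2(signal + 1.75), IRE1dn minus ctrl, for each probe set of the 13 members with more than 1, joined by a line within a gene. Circles mark the probe set with the highest mean, squares the others, and filled symbols passed limma's threshold in the fit over probe sets. P4HB and OS9 each join a filled circle near 0.9 to an open square below 0.2.

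A wider list of 66 other genes of ER folding, glycan trimming and ERAD was set beside the members. Of these 54 had a probe set and 48 were tested: 8 rose and 5 fell, 27.1% against the 34.4% of all genes, with a median log2 change of 0.19. Among the rises, the ERAD scaffold ERLIN1 had 543, 743 and 852 units in IRE1dn cells, against 297, 347 and 439 units in ctrl cells (0.97, SE 0.21, limma adjusted p = 0.0075). The membrane-bound thioredoxin relative TMX4 rose by 0.96 (SE 0.16) and the torsin ATPase TOR1A by 0.79 (SE 0.18). The cyclophilin PPIC changed by 0.87 (SE 0.30, limma adjusted p = 0.0496), with 626 units on ctrl array 1 inside the IRE1dn range of 614 to 696 units and 249 and 284 units on the other ctrl arrays. Its call ended in 10 of 17 alternative settings, among them the omission of any array except ctrl array 1. Among the falls, the mannosidase MAN1A1 had 178, 167 and 141 units in IRE1dn cells, against 359.7, 339 and 471 units in ctrl cells (-1.25, SE 0.19, limma adjusted p = 0.0013). The glucosidase MOGS, which starts the trimming of new glycans, fell by 1.03 (SE 0.28), EDEM2, a relative of EDEM1, by 0.71 (SE 0.19) and TMX2, a relative of TMX4, by 0.70 (SE 0.17). Without IRE1dn array 2 the limma calls of MOGS (adjusted p = 0.083), TMX2 (adjusted p = 0.051) and TOR1A (adjusted p = 0.058) ended. EDEM2 lost its call without IRE1dn array 1 (limma adjusted p = 0.052) or 3 (adjusted p = 0.093).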

How the data were processed

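RNA samples of U87 cells were measured on 6 Affymetrix arrays, 3 IRE1dn and 3 ctrl. The authors deposited linear signal intensity per probe set. The submitters' processing notes name GCOS 1.2, and the summarisation and background steps are, here, not given in the sources used. No detection calls were used, and the number of arrays limits the precision. Symbols came from the platform annotation: 19064 of 22277 probe sets had 1 gene, 1043 had several and 2108 had none listed, besides 62 control probe sets. Of the 19064, 19052 were matched by identifier to the GRCh38.p14 RefSeq table, which gives current symbols.

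Intensity was turned into log2(signal + 1.75), the pseudocount being the 20th percentile of all values. Genes with a mean log2 value above the 40th percentile, a signal of 12.97, were compared between groups by limma (version 3.58.1, under R 4.3.3), using lmFit and then eBayes with a trend on intensity, two-sided and without covariates. The procedure was tested on simulated data first. Adjusted p-values are limma's. A second fit took each probe set separately. Promoter windows were searched in Python 3.11.15. Members and lists were chosen with earlier results of these data known, so no list is independent evidence. Values are given in full for members past the threshold, members whose arrays did not overlap and the 4 largest other changes, and for up to 4 changes in each direction of the wider list. The other members are given more briefly. In the 17 alternatives the pseudocount, filter, scaling, summary of probe sets or variance model was replaced, arrays were weighted, replicate number entered as a block, or 1 array was omitted while the probe sets and genes tested stayed fixed. Same-numbered arrays did not deviate together (correlations of -0.10, 0.06 and 0.02). With 3 arrays per group this gave no sign of pairing but cannot show that the samples were unpaired.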

Additional observations from a re-analysis of the deposited data

How the results depend on the processing

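Over 17 alternatives to the settings reported, 29 members gave 492 values: 469 kept their side of the threshold, 17 called changes lost it, 6 others gained it and no called change turned sign. The 17 lost calls were those of VCP, OS9, DNAJC10, P4HB and CRELD2, and the 6 gained ones those of ERO1A, UGGT1, HERPUD1 and NPLOC4, as given above. Omitting an array also lowers power. With 1 array left out, the members that rose numbered 2 to 6 and those that fell 3 to 5. The fewest rises came without IRE1dn array 3, and the fewest falls without IRE1dn array 2 or 3. With the mean of a gene's probe sets 2 members rose, since P4HB and OS9 no longer passed. With 1 array left out, 3 to 8 genes of the wider list rose and 2 to 5 fell, fewest without IRE1dn array 2 in both directions, and over all genes 748 to 1403 rose and 692 to 1260 fell. The ERAD median was -0.15 with the mean of probe sets and -0.16 with array weights, and it lay between -0.17 and 0.010 with 1 array left out. The chaperone median lay between -0.17 and 0.13 and the isomerase median between -0.04 and 0.18 with 1 array left out, so none of the 3 medians has a settled sign. The cause of these shifts was not tested. With the replicate number as a block, 5 members rose and 4 fell: ERO1A was added (0.84, adjusted p = 0.024) and VCP was lost (-0.46, adjusted p = 0.077). The block changed no other member's call. All 29 members lay above the filter level on average.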

Other observations

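The folding and ERAD transcripts varied more among the ctrl arrays than among the IRE1dn arrays. The SD of log2 signal had a median of 0.16 in IRE1dn cells and 0.30 in ctrl cells over the 29 members, beside 0.17 and 0.29 over all genes tested. It was larger in ctrl cells for 24 of the 29, beside 5088 of all 7178. For the 9 ERAD components the medians were 0.058 in IRE1dn cells and 0.43 in ctrl cells, and the ctrl SD was the larger for 9 of 9. The 21 tested ERAD genes of the wider list had medians of 0.19 in IRE1dn cells and 0.22 in ctrl cells, with the larger SD in ctrl cells for 15. SEL1L, for example, had an SD of 4.45 units in IRE1dn cells and 126 units in ctrl cells, and EDEM1 3.26 and 26.9 units. The ERAD medians were not tested against those of other genes.

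Some arrays were often the lowest or highest of their group. IRE1dn array 2 was the lowest of the 3 IRE1dn arrays for 16 of 29 members (55.2%, against 28.2% of all genes tested), among them 7 of 9 ERAD components, and IRE1dn array 3 was the highest for 15 of 29, beside 2593 of all 7178 genes. Ctrl array 1 was the lowest of the 3 ctrl arrays for 19 of 29 members (65.5%, against 40.8% of all genes tested), and ctrl array 2 was the highest for 17 of 29, among them 9 of 11 chaperones, beside 2496 of all 7178 genes. Around the ctrl mean, the median member lay at 0.04, -0.08 and -0.03 on IRE1dn arrays 1, 2 and 3 on the log2 scale, and at -0.28, 0.23 and 0.11 on ctrl arrays 1, 2 and 3. HYOU1 spanned 70.1 to 205 units, HERPUD1 470.2 to 991 units and DNAJB9 225 to 579 units among the ctrl arrays. The cause was not tested.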
